A study of Mus musculus with 6 samples.

Results

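Mitochondrial ribosomal protein genes were described in the RNA sequencing of peritoneal B-1a and B-1b cells. Members were chosen by name alone, as every gene whose symbol is Mrpl or Mrps followed by a number and at most 1 letter, without use of any measured value. There were 73 such genes among the 7834 gene names of the table, and they held 126 of its 13747 rows, a row being a transcript. Both groups were untreated wild-type C57BL/6 mice, and both cell populations were purified from the peritoneal cavity by fluorescence-activated sorting. B-1a and B-1b cells are innate-like B cells that are told apart by surface CD5, present on B-1a cells and absent from B-1b cells. For these libraries the sources used here give neither the age of the mice nor the number of mice pooled. The labels number 3 replicates in each group, but the third columns carried no measurement of their own for these genes. In all 126 member rows the B-1b 3 value equalled B-1b 1 and the B-1a 3 value equalled the mean of B-1a 1 and B-1a 2, within a relative tolerance of 1e-06. All comparisons therefore rest on 2 libraries per group, B-1a 1 and 2 against B-1b 1 and 2. No label says whether these came from separate mice, so the p-values measure only the spread between these libraries, which may be technical.

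The mitochondrial ribosome translates the few messenger RNAs that the mitochondrial genome encodes, all of them for subunits of the respiratory chain and the ATP synthase. Its ribosomal RNAs come from the mitochondrial genome, while each of its proteins is encoded in the nucleus, made in the cytosol and imported. Some of these proteins descend from bacterial ribosomal proteins and others were added during the evolution of mitochondria. Activated B cells remodel their mitochondria, and the respiratory chain that this ribosome supplies serves their growth and differentiation. By subunit, 48 members belong to the large subunit and 24 to the small subunit, with Mrps30 and Mrps18a counted in the large subunit, where their proteins sit despite their names. Mrps36 was counted apart, because its protein is now known as a subunit of the 2-oxoglutarate dehydrogenase complex. By origin, 42 members have a bacterial counterpart and 30 are mitochondrial additions. Mrpl19, Mrpl32, Mrpl47, Mrps5 and Mrps25 were not analysed here.

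Promoters are shown because transcription factors that drive many nuclear genes of mitochondria, such as NRF1, GABPA of the ETS family and YY1, are known to bind close to the start sites of this family. RefSeq promoters (GRCm38.p6, 250 bases before to 50 after each start) were found for 65 members, with 71 promoters in all. Mrpl4, Mrpl13, Mrpl15, Mrpl38, Mrpl54, Mrps28, Mrps34 and Mrps35 had no entry. Both strands were searched for 5 motifs. The letters CCGGAAG (ETS) were in 26 of the 71 member promoters (36.6%), in 20.2% of the promoters of genes tested and in 8.86% of all mouse promoters in the table. The letters AAGATGGCG (YY1) were in 8 (11.3%), against 3.62% and 1.40%. The letters GCATGCGC (NRF1) were in 7 (9.86%), against 5.44% and 2.71%. The E-box CACGTG, which MYC binds, was in 7 (9.86%), against 10.7% and 7.15%. TATAAA was in 5 (7.04%), against 6.90% and 13.6%. The ETS, YY1 and NRF1 letters were thus more frequent in member promoters than among the genes tested, whereas TATAAA was close to them. The count of the E-box includes 3 overlapping promoters of Mrpl2 that share 1 match, and by gene it was in 5 of 65 members (7.69%), against 12.6% of genes tested. The median GC content was 59% in member promoters and 60.7% in those of genes tested. A match is a run of letters and not a measured site, and no binding was measured here. The stretches below run 5′ to 3′ on the strand of the gene, from 130 bases before to 20 after the start, with matches in capitals. Mrpl33, the member with the highest level, carries NRF1 letters just before ETS letters at its start (chr5:31613821-31613970, plus strand). Mrps18a carries ETS letters before and YY1 letters after its start (chr17:46110874-46111023, plus strand). Mrpl9 carries the NRF1 letters on both strands, overlapping in 1 run of capitals (chr3:94443206-94443355, plus strand). Mrpl41 (chr2:24975079-24975228, minus strand) and Mrpl40 (chr16:18876618-18876767, minus strand), whose levels separated the groups as described further on, hold none of the 5 motifs in their 300 bases.
Mrpl33: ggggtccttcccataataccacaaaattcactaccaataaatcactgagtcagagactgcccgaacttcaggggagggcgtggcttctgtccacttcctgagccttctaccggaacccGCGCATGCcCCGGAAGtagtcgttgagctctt
Mrps18a: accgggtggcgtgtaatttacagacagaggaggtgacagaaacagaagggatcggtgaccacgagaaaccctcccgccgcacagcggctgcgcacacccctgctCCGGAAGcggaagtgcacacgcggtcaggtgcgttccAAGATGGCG
Mrpl9: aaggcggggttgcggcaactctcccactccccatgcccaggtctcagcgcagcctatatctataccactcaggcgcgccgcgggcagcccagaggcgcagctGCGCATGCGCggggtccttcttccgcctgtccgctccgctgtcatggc
Mrpl41: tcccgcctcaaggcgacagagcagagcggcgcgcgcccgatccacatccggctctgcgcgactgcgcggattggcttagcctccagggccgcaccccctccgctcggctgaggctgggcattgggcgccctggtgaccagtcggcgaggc
Mrpl40: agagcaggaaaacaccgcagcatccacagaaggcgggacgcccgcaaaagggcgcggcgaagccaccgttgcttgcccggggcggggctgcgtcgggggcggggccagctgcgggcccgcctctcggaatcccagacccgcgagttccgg

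Levels are in FPKM (fragments scaled to transcript length and to the mapped fragments of the library), which allows genes to be compared per length. The rows of a gene were summed. The number of reads behind each value is unknown, so no interval for counting error is given. As a group the mitochondrial ribosomal protein genes were moderately expressed in both populations. Their summed level was 1739 and 1847 FPKM in B-1a 1 and 2, against 1559 and 1951 in B-1b 1 and 2, that is 1793 ± 75.8 (SD, n = 2) against 1755 ± 277 (SD, n = 2). The B-1b libraries lay on either side of the B-1a libraries, and the group means differed by less than the spread within B-1b. The members held 0.503% and 0.535% of all FPKM in B-1a and 0.481% and 0.532% in B-1b. Small-subunit genes took 27.7% and 25.3% of the members' sum in B-1a and 26.9% and 26.8% in B-1b. Averaged over the 4 libraries, single members ranged from 0.303 to 74.2 FPKM with a median of 18.5, against a median of 13.2 for all genes tested, and 53 members lay above that median. Of the 73 members, 71 reached 1 FPKM in every library, 65 averaged at least 10 FPKM and 9 at least 50 FPKM, while the 5 highest held 19.3% of the sum.

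The 5 members with the highest mean level were 4 large-subunit genes and 1 small-subunit gene. Mrpl33, the counterpart of bacterial L33, was at 74.2 and 77.1 FPKM in B-1a and at 59.9 and 85.5 in B-1b. Mrpl42, a mitochondrial addition, was at 63.2 and 65.7 in B-1a and 60.7 and 104 in B-1b. Mrpl30, the counterpart of L30, was at 85.7 and 69.3 in B-1a and 50.2 and 63.1 in B-1b. Among these, Mrpl30 alone separated the groups, since the other two straddled the B-1a values in B-1b. Mrpl52, an addition, was at 65.3 and 70.1 in B-1a and 54.5 and 70.4 in B-1b. Mrps18c, the counterpart of bacterial S18 in the small subunit, was at 64.6 and 63.9 in B-1a and 51.9 and 67.3 in B-1b. The means of these 5 genes ran from 61.9 to 74.2 FPKM, and neighbours in that order did not differ beyond their spread. At the low end, Mrpl53 was at 0.263 and 0.638 in B-1a and 0.117 and 0.196 in B-1b, and it was the only member that did not pass the filter of 1 FPKM in at least 2 of 4 libraries. Mrpl48 was at 2.20 and 1.39 in B-1a and 1.17 and 1.34 in B-1b. Mrpl17, the counterpart of L17, was at 2.80 and 2.39 in B-1a and 3.16 and 3.63 in B-1b. Both are large-subunit genes. Mrps35, a small-subunit addition, was at 6.74 and 6.28 in B-1a and 5.88 and 7.43 in B-1b, and Mrpl15 completes the 5 lowest.

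The comparison of B-1b with B-1a asked whether the subsets differ in this gene family. The levels of the family as a whole were close in the 2 subsets, and no member passed the test. The 72 members that passed the filter were tested within all 7557 genes with limma on log2(FPKM + 1), with Benjamini-Hochberg adjustment over all of them. Differences are given on that scale as B-1b over B-1a, and the scale understates changes of genes at low levels. At an adjusted p (FDR) below 0.05, limma called 0 of 72 members, and 15 of all genes tested (0.198%). A linear model without sharing of the spread between genes also called 0. At an unadjusted p below 0.05, limma had 3 members higher in B-1b (4.17%), beside 5.39% of all genes, and 3 lower (4.17%), beside 4.27%. These shares were near or under those of all genes. Both B-1b libraries lay above both B-1a libraries in 10 members (13.9%), beside 25.8% of all genes, and below them in 13 (18.1%), beside 17.3%. The groups overlapped in the other 49. The fitted difference was positive in 36 members and negative in 36, with a median of 0.0016 and quartiles of -0.17 and 0.15. For all genes the median was 0.054 and the quartiles were -0.20 and 0.30. A difference smaller than 0.25 in either direction was found in 48 members (66.7%), against 48.6% of all genes, and one larger than 1 in 3 (4.17%), against 9.95%. In the large subunit 24 genes were higher and 23 lower (median 0.006), and in the small subunit 12 and 12 (median 0.008). Of members with a bacterial counterpart 20 were higher and 22 lower (median -0.016), and of the additions 16 and 13 (median 0.020). None of these medians was far from 0. Markers of other cells were present in all 4 libraries, and these bulk values cannot tell fewer cells of a type from less RNA per cell. Macrophage markers (7 of 8 in the table, none at 0) summed to 4757 and 3566 FPKM in B-1a and to 4437 and 7529 in B-1b, and most of this sum was Lyz2. Of the 7, Adgre1, Csf1r, C1qb, C1qc and Cd68 were higher in both B-1b libraries than in both B-1a libraries, Adgre1 at 51.1 and 56.0 FPKM in B-1a and 90.4 and 101.1 in B-1b. Lyz2 and C1qa overlapped between the groups. T cell markers (4 of 6 in the table, none at 0) summed to between 8.35 and 12.3 in all libraries. Lists that were higher in both B-1b libraries were platelets (Pf4 alone of 3, 136 and 106 FPKM for B-1a, 209 and 272 for B-1b), mast cells (124 and 123, 223 and 129) and plasma cells (4 of 5, 96.6 and 100.1, 104 and 140). Lists that were lower in both were B-2 cells (4 of 4, 695 and 557 in B-1a, 469 and 463 in B-1b) and NK cells (Nkg7 alone of 4, 7.87 and 7.69, 4.67 and 5.86). Cr2 of the B-2 list was at 0 in B-1a 2 and B-1b 2, and neutrophil markers were not analysed here. The B-1 cell list (5 of 6) summed to 33.6 and 49.7 in B-1a and 81.5 and 99.6 in B-1b, with Itgam, Cd9 and Bhlhe41 higher in both B-1b libraries. The B cell list (7 of 7) summed to 4030 and 3812 in B-1a and 6010 and 6486 in B-1b, of which Ighm was 32.5 and 38.7 in B-1a and 2585 and 2781 in B-1b. Cd5, which defines B-1a cells, was at 0.446 and 0.757 FPKM in B-1a and 0.895 and 0.737 in B-1b, so its transcript did not separate the groups. The B cell markers Cd79a, Cd79b and Ms4a1 were at 404 to 2219 FPKM in all libraries. The part of such cells in the differences below was not tested.

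Among members with the smallest p in the direction of B-1b, Mrpl54 differed most. This large-subunit addition (chr10:81264713-81266934, minus strand, GRCm38) was at 0.480 and 2.29 in B-1a, against 47.5 and 16.5 FPKM in B-1b. Both B-1b libraries were far above both B-1a libraries, although they also lay far apart from each other. The log2 difference was 3.72 (SE 0.68, limma adjusted p = 0.257). Both rows of Mrpl54 were higher in both B-1b libraries, the first at 0.384 and 1.83 FPKM in B-1a and 46.0 and 9.25 in B-1b. Its start lies within 1000 bases of the start of Apba3, transcribed in the opposite direction. Mrpl40, an addition that lies beside Hira (chr16:18872018-18876862, minus strand), was at 29.0 and 26.8 FPKM in B-1a and 37.0 and 39.6 in B-1b. The replicates were close in both groups and the groups did not overlap, with a log2 difference of 0.44 (SE 0.15, limma adjusted p = 0.481). Its higher row, at 23.2 and 24.7 in B-1a and 23.6 and 32.0 in B-1b, overlapped, and on that row alone the difference was 0.19. Mrpl15, the counterpart of L15 and a low member (chr1:4773206-4785739, minus strand), was at 3.49 and 5.33 in B-1a and 7.20 and 10.5 in B-1b. Its log2 difference was 0.86 (SE 0.31, limma adjusted p = 0.514). The next 3 had unadjusted p-values over 0.05. Mrpl24, the counterpart of L24, was at 14.1 and 13.3 FPKM in B-1a and 20.8 and 17.1 in B-1b (log2 difference 0.43, limma adjusted p = 0.569). On its highest row alone it was 0.75. Mrps17, the counterpart of S17, was at 12.0 and 9.22 in B-1a and 13.2 and 23.5 in B-1b (0.70, limma adjusted p = 0.608). On its highest row alone the difference was 0.015. Mrpl14, the counterpart of L14, was at 19.9 and 20.3 in B-1a and 23.4 and 29.7 in B-1b (0.38, limma adjusted p = 0.612). In all 6 genes both B-1b libraries were the higher ones, and none was called.

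In the other direction, Mrpl4 had the smallest p of any member. It is the counterpart of L4, which lines the tunnel through which the new protein leaves the ribosome (chr9:21002738-21008839, plus strand). Mrpl4 was at 48.5 and 51.6 FPKM in B-1a, against 17.1 and 20.9 in B-1b. The replicates were close in both groups and the B-1a level was 2.64 times that of B-1b, a log2 difference of -1.36 (SE 0.17, limma adjusted p = 0.177). Most of it lay in 1 of its 3 rows, at 46.8 and 43.1 in B-1a and 16.3 and 20.6 in B-1b. Mrpl13, the counterpart of L13 (chr15:55534094-55557748, minus strand), was at 38.7 and 39.4 in B-1a and 25.3 and 17.0 in B-1b, a log2 difference of -0.88 (SE 0.24, limma adjusted p = 0.394). Mrpl41, an addition with a single row (chr2:24974117-24975098, minus strand), was at 28.7 and 21.5 in B-1a and 1.61 and 8.17 in B-1b, a log2 difference of -2.40 (SE 0.67, limma adjusted p = 0.398). The B-1a libraries were thus well above both B-1b libraries, which differed from each other several-fold. The start of Mrpl41 lies within 1000 bases of that of Pnpla7, on the other strand. Mrpl30, given above among the highest members, had a log2 difference of -0.45 (limma adjusted p = 0.599). Mrpl49, an addition whose start faces that of Fau, was at 24.2 and 25.1 in B-1a and 17.3 and 21.1 in B-1b (-0.35, limma adjusted p = 0.615). Mrps18b, a small-subunit addition related to S18, was at 20.1 and 17.7 in B-1a and 14.5 and 16.1 in B-1b (-0.29, limma adjusted p = 0.668). These 6 genes separated the groups with both B-1b libraries low, and again none was called.

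**Figure D1:**
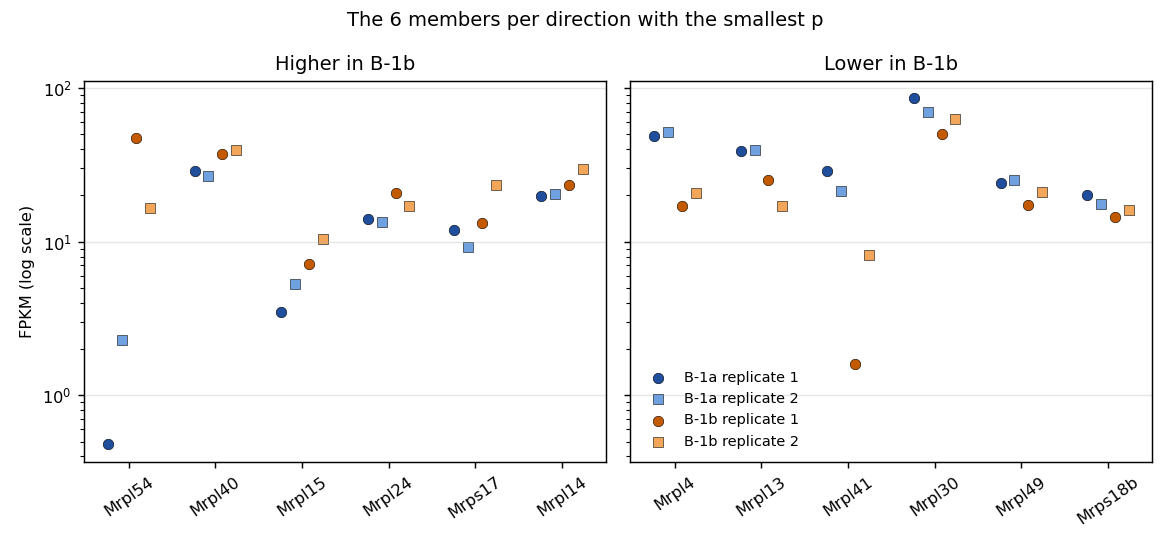
Level in FPKM of the 6 members per direction with the smallest unadjusted p, with 1 point per library on a log axis. The groups do not overlap in any of the 12 genes, and Mrpl54 and Mrpl41 show the widest spread within B-1b.

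Other members were named for their role or for their place in the ribosome, and in the 7 that follow the groups overlapped. Mrpl12, which forms the stalk that recruits translation factors, was at 32.4 and 39.7 FPKM in B-1a and 35.3 and 53.1 in B-1b (log2 difference 0.27, limma adjusted p = 0.755). Mrpl10, which anchors Mrpl12 to the subunit, was at 34.3 and 32.3 in B-1a and 33.5 and 35.8 in B-1b, close in all libraries. Mrpl58, a peptidyl-tRNA hydrolase that rescues stalled ribosomes, was at 9.74 and 4.38 in B-1a and 5.23 and 9.34 in B-1b. The B-1b values of Mrpl58 lay between its B-1a values. Mrps30 was at 16.1 and 15.2 in B-1a and 13.9 and 18.9 in B-1b. Mrps18a was at 23.3 and 26.3 in B-1a and 22.4 and 28.8 in B-1b. In both of these large-subunit genes the B-1b libraries lay outside the B-1a pair on either side. Mrps12, the counterpart of S12 at the decoding site, was at 22.9 and 6.60 in B-1a and 6.74 and 10.1 in B-1b (-0.54, limma adjusted p = 0.790). Mrps36, the gene counted apart, was at 32.1 and 35.7 in B-1a and 25.2 and 39.0 in B-1b.

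For several members the libraries of 1 group differed more than the groups did. The 2 libraries were more than 1 apart on the log2 scale in 7 members in B-1a and in 7 in B-1b, 4 of them in both and 10 in either. Mrpl18, the counterpart of L18, was at 6.76 and 40.9 FPKM in B-1a and 28.6 and 3.91 in B-1b. Mrpl20, the counterpart of L20, was at 11.6 and 45.5 in B-1a and 10.8 and 51.7 in B-1b. Mrps24, a small-subunit gene, was at 7.65 and 16.9 in B-1a and 25.9 and 3.55 in B-1b. In these 3 genes each group held 1 high and 1 low library. Mrpl43, an addition, was at 8.43 and 39.9 in B-1a and 29.7 and 30.3 in B-1b, so only the B-1a libraries were apart. In 46 members (63.9%) the gap between the B-1b libraries was larger than the difference between the groups, against 57.1% of all genes tested.

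The levels above are sums over the rows of a gene, so a shift of level from 1 row to another does not enter them. Mrpl18 and Mrpl43 had a single row. The rows themselves are described here. Of the 73 members, 34 had 1 row and 39 had several, up to 4. Of the latter, 21 had rows whose differences between the groups had both signs. No member had 1 row up by over 1 and another down by over 1 in both B-1b libraries. Mrps12 came closest, with 1 row at 0.297 and 1.8 FPKM in B-1a and 5.38 and 5.16 in B-1b, and another at 22.6 and 4.81 in B-1a and 1.36 and 4.94 in B-1b. Of the rows of Mrps24, the first was at 7.34 and 11.2 in B-1a and 4.67 and 1.76 in B-1b, and the second at 0.306 and 5.68 in B-1a and 21.2 and 1.79 in B-1b. Only the second row was high in B-1b 1. Of the rows of Mrpl13, 1 was at 20.5 and 20.3 in B-1a and 5.05 and 9.26 in B-1b, and the other at 18.2 and 19.2 in B-1a and 20.3 and 7.70 in B-1b. So the first row was lower in both B-1b libraries and the second only in B-1b 2. For Mrpl20, the row at 5.23 and 37.6 in B-1a and 6.48 and 35.2 in B-1b carried most of the gap in both groups. Another of its rows, at 6.35 and 7.85 in B-1a and 3.63 and 14.8 in B-1b, also differed between the B-1b libraries. The rows bear no transcript identifiers, and 66 members have fewer rows than GENCODE M21 has transcripts for them, so no row was assigned to an isoform. Reads of overlapping genes could not be told apart where strand was not used in counting, which the sources used here do not state. In GENCODE M21, 20 members overlap a coding gene on the opposite strand and 4 one on the same strand, and 21 have a coding gene that starts within 1000 bases in the other direction. Named pseudogenes exist for 3 members.

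**Figure D2:**
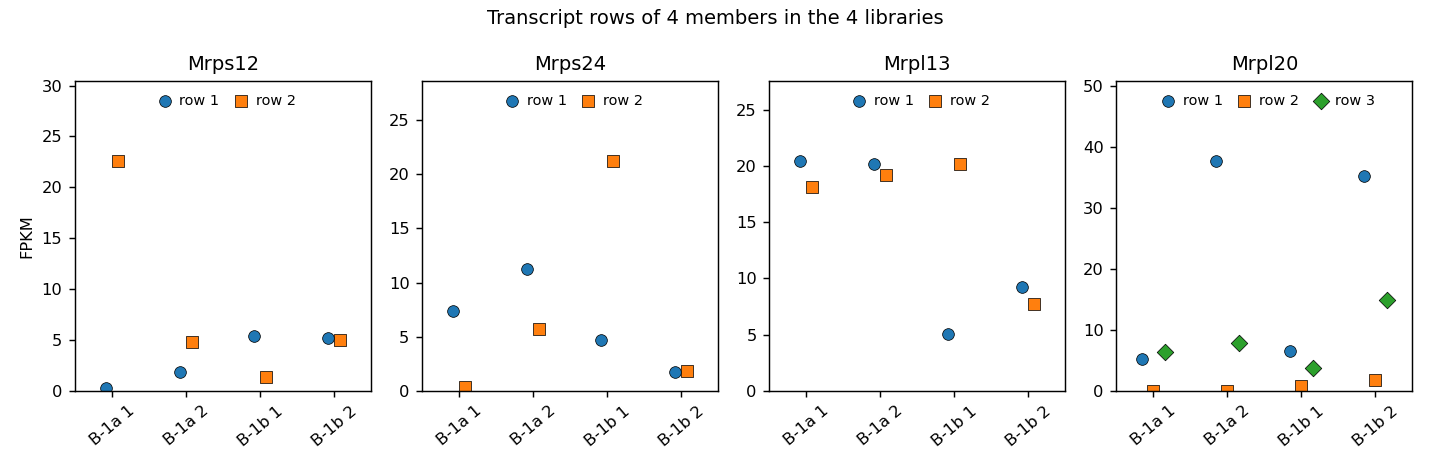
Level in FPKM (vertical axis) of each row of Mrps12, Mrps24, Mrpl13 and Mrpl20 in the 4 libraries, with 1 point per row and library. The high row of Mrps12 in B-1a 1 (22.6 FPKM) and the high row of Mrps24 in B-1b 1 (21.2 FPKM) each stand out in a single library.

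The most regular pattern within the family lay between the libraries of B-1b, not between the groups. B-1b 2 was above B-1b 1 in 62 of 72 members (86.1%), against 50.5% of all genes tested, and the median gap was 0.33 on the log2 scale, against 0.006. B-1a 2 was above B-1a 1 in 43 members (59.7%), against 51.8% of all genes, with a median gap of 0.053. Large-subunit genes with B-1b 2 on top numbered 40 of 47 and small-subunit genes 21 of 24, so the gap spanned both subunits. The 10 members that ran the other way were Mrpl9, Mrpl13, Mrpl18, Mrpl24, Mrpl28, Mrpl37, Mrpl54, Mrps14, Mrps24 and Mrps34. Scaling the libraries to equal upper quartiles left 58 members with B-1b 2 on top (median gap 0.25, 43.9% of all genes), and scaling to equal totals without immunoglobulin genes left 48 (median gap 0.15, 35.7% of all genes). The direction of the comparison between groups differed with the B-1b library used. With B-1b 1 as the only B-1b library, 21 members were above B-1a 1 and 18 above B-1a 2, with medians of -0.14 and -0.15. With B-1b 2 instead, 52 were above B-1a 1 and 49 above B-1a 2, with medians of 0.18 and 0.15. Over all genes those shares were 55.0% and 54.9% with B-1b 1 and 56.4% and 55.3% with B-1b 2. The macrophage marker Lyz2 was at 3927 FPKM in B-1b 1 and 6824 in B-1b 2, and Adgre1, C1qa and C1qb were also higher in B-1b 2. Csf1r, C1qc and Cd68 were lower there, at 39.7 and 35.1, at 20.1 and 8.46, and at 53.2 and 52.7 FPKM. Mast cell markers (5 of 5 in the table, none at 0) summed to 223 FPKM in B-1b 1 and 129 in B-1b 2, against 124 and 123 in B-1a. The part of these cells in the gap was not tested.

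**Figure D3:**
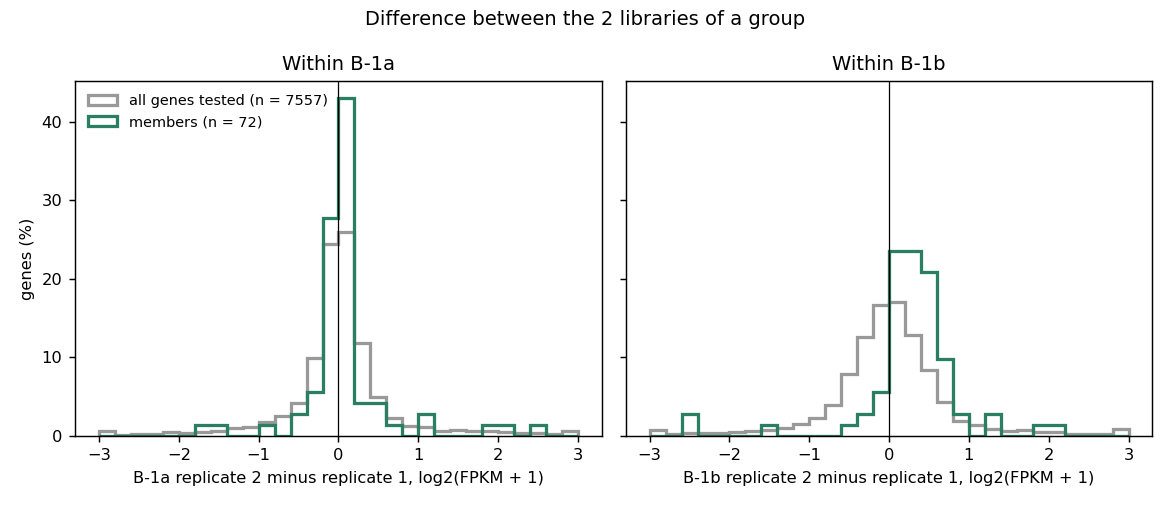
Difference between the 2 libraries of a group on the log2(FPKM + 1) scale for members and for all genes tested, with values beyond 3 in either direction drawn at 3. Members sit to the right of 0 in B-1b (62 of 72), while in B-1a they lie around 0.

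Transcript length also moved with the gap between the B-1b libraries. Coding transcripts of the members are short, with a median length of 1023.5 bases (405 to 4278). All genes tested with a length in GENCODE M21 were divided into 4 equal bins by median coding transcript length. B-1b 2 was above B-1b 1 in 65.7%, 59.5%, 44.3% and 28.8% of genes from the shortest to the longest bin. Members were above these shares in each bin, with 34 of 39 (87.2%), 13 of 17 (76.5%), 10 of 11 and 5 of 5, the last resting on few genes. Other RNAs of translation and of mitochondria went in different directions. Of 85 cytosolic ribosomal protein genes, 79 (92.9%) were above in B-1b 2, whereas of the 13 messenger RNAs encoded in the mitochondrial genome only 1 was, with a median gap of -0.49. The part of length in the gap of the members was not tested apart from these bins.

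**Figure D4:**
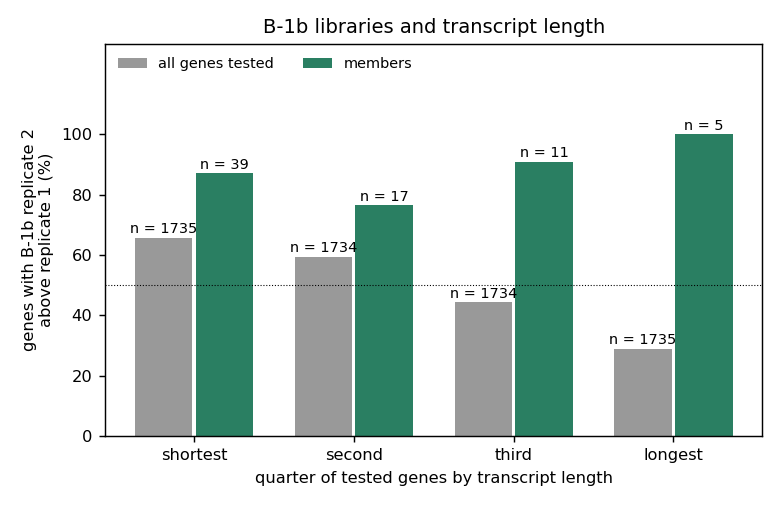
Percentage of genes with B-1b 2 above B-1b 1, by bin of transcript length from shortest to longest, for all genes tested and for members. The share falls from 65.7% to 28.8% over all genes, and the members stay above it in each bin.

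The other genes of mitochondrial translation were given by lists chosen for their function. None of their genes passed the limma test at an adjusted p below 0.05, and the unadjusted counts follow. Of 5 ribosomal proteins with names of another kind, 3 were higher and 2 lower in B-1b, none with an unadjusted p below 0.05. The highest of them was Chchd1, at 48.8 and 50.7 FPKM in B-1a and 33.2 and 62.7 in B-1b. Of 8 translation factors, 5 were higher and 3 lower. An unadjusted p below 0.05 (limma) was found for 2 of the 8, both higher, beside 5.39% of all genes. Taco1, which activates translation of the Co1 message, was at 0.487 and 0.231 in B-1a and 3.08 and 5.80 in B-1b (log2 difference 1.96, limma adjusted p = 0.313). Gfm2, which helps split the ribosome after termination, was at 4.24 and 4.03 in B-1a and 7.17 and 7.40 in B-1b (0.69, limma adjusted p = 0.431). In both genes the groups were separate, with B-1b high. Taco1 was under 1 FPKM in both B-1a libraries and so passed the filter only through B-1b, where it had to be the higher. Mtif3, an initiation factor and the highest of the list, was at 17.5 and 15.5 in B-1a and 12.2 and 17.8 in B-1b. Of 19 assembly and ribosomal RNA modification factors, 12 were higher and 7 lower, none with an unadjusted p below 0.05, and the highest, Rbfa, was at 30.7 and 30.0 in B-1a and 30.4 and 33.6 in B-1b. Of 13 tested genes for mitochondrial tRNA charging, 9 were higher and 4 lower, none with an unadjusted p below 0.05. The highest, Gars, which also serves the cytosol, was at 47.9 and 53.7 in B-1a and 62.4 and 63.0 in B-1b. Of 13 genes of mitochondrial transcription and RNA processing, 8 were higher and 5 lower, none with such a p. The highest, Hsd17b10, a subunit of mitochondrial RNase P, was at 40.4 and 40.7 in B-1a and 31.2 and 46.8 in B-1b. Both B-1b libraries lay above both B-1a libraries in 0 of the 5 ribosomal proteins, 3 of the 8 translation factors, 5 of the 19 assembly factors, 5 of the 13 tRNA charging genes and 6 of the 13 transcription and RNA processing genes, beside 25.8% of all genes. They lay below them in 0, 1, 0, 0 and 2 genes of the same lists, beside 17.3% of all genes.

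Most messenger RNAs of the mitochondrial genome were higher in B-1b. Of its 13 messenger RNAs, 11 were higher in B-1b at an unadjusted p below 0.05 (limma), beside 5.39% of all genes. At that p 1 was lower, beside 4.27%. Both B-1b libraries lay above both B-1a libraries in 12, beside 25.8% of all genes, and below them in 1, beside 17.3%. The median log2 difference of the 13 was 1.32. The 11 were mt-Nd1, mt-Nd2, mt-Nd4, mt-Nd4l, mt-Nd5, mt-Nd6, mt-Co1, mt-Co2, mt-Atp6, mt-Atp8 and mt-Cytb, with log2 differences from 0.91 (mt-Nd2) to 4.42 (mt-Nd6) and limma adjusted p-values from 0.112 to 0.371. The exception, mt-Nd3, was at 275 and 310 FPKM in B-1a and 123 and 173 in B-1b (-1.0, limma adjusted p = 0.328). The highest, mt-Co3, was at 1484 and 1592 FPKM in B-1a and 2040 and 2007 in B-1b (0.40, limma adjusted p = 0.614). Of the 2 ribosomal RNAs that the members bind, mt-Rnr1 of the small subunit was at 115 and 118 FPKM in B-1a and 193 and 181 in B-1b (0.68, limma adjusted p = 0.292). The large-subunit RNA mt-Rnr2 was at 724 and 624 in B-1a and 554 and 585 in B-1b (-0.24, limma adjusted p = 0.708). The libraries were made from poly-A RNA, so these levels also depend on how much of each RNA carried a tail. Of the regulators whose motifs were searched, Gabpa was at 0.203 and 5.95 in B-1a and 7.01 and 10.4 in B-1b. Myc was at 41.8 and 43.8 in B-1a and 15.9 and 13.5 in B-1b, separate between the groups and close within them (log2 difference -1.49, limma adjusted p = 0.149). Nrf1 stayed under the filter, at 0.345 and 0.101 FPKM in B-1a and 0.081 and 1.48 in B-1b.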

How the data were processed

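The deposited expression table of peritoneal B-1a and B-1b cells was analysed. The submitters' processing notes name HISAT2, StringTie and the GRCm38 (mm10) build, and the study's methods add Ballgown for its tests. Versions and the filter that selected rows were not found in these sources. The authors deposited values per transcript that behave as FPKM, although no header names a unit, and the depth is unknown. There were 0 unmapped sample columns. B-1a 3 and B-1b 3 were left out because they derive from the other columns (13710 and 13722 of 13747 rows).

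Rows of a gene name were summed. A gene entered the fit when 2 or more of the 4 libraries reached 1 FPKM. The fit used limma 3.58.1 (R 4.3.3) with an intensity trend and Benjamini-Hochberg adjustment on log2(FPKM + 1), and was tested on simulated data. Python 3.11.15, numpy 2.4.6, pandas 2.3.3 and matplotlib 3.10.9 were used for the rest. Loci came from GENCODE M21 (GRCm38; 7830 of 7834 names matched) and promoters from RefSeq. The members, the gene lists and the markers were chosen with earlier results of these data known.

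Members were named by rule: 6 per direction with the smallest p, the 5 highest and 5 lowest, the 4 with the largest gap within a group, and Mrpl10, Mrpl12, Mrpl58, Mrps12, Mrps18a, Mrps18b, Mrps18c, Mrps30 and Mrps36 for their role. Of the lists of mitochondrial translation, the highest gene and those with an unadjusted p below 0.05 were named; cytosolic ribosomal protein genes served for 1 comparison and were only counted. Mrpl9, Nrf1, Gabpa, the other members whose B-1b libraries ran the other way and the marker genes were named after their values were seen. Alternatives were other filters, pseudocounts and scalings, all 6 columns, the mean of B-1b 1 and 3, the replicate number as a block, no sharing of the spread, the highest row of a gene, and each library left out. The bins of transcript length were added after seeing the data.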

Additional observations from a re-analysis of the deposited data

How the results depend on the processing

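The comparison had 2 libraries per group and an unknown depth, and it called no member. In 48 of 72 members the difference was smaller than 0.25 in either direction. The lack of a call does not show equal levels in the groups. The count of members called by limma stayed at 0 under every alternative except all 6 columns, which called 7, since those columns repeat others and shrink the spread by construction. All 6 columns also gave 7 members higher and 10 lower at an unadjusted p below 0.05, and the fit without sharing of the spread gave 1 higher. The 7 members were Mrpl54 (adjusted p = 0.00957), Mrpl40 (0.0127), Mrpl24 (0.0301), Mrpl4 (0.00165), Mrpl13 (0.0334), Mrpl41 (0.0284) and Mrpl49 (0.0458, all limma). Leaving out 1 library in turn, where the lone library is assumed to vary like the other group, gave 1 to 6 members higher and 1 to 8 lower at that p. With 1 library left out, 1 group holds a single library, so a lack of overlap is easier to meet than in the main comparison. Members with all remaining B-1b libraries above all remaining B-1a libraries numbered 12 to 44, and those with all below 15 to 45. The extremes were without B-1b 1 (44 above) and without B-1b 2 (45 below), where a single B-1b library was set against both of B-1a. No share over all genes is given for these counts. Positive differences numbered 18 to 50, the median difference ran from -0.15 (without B-1b 2) to 0.19 (without B-1b 1), and the ratio of the summed FPKM from 0.87 to 1.09.

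Of 415 alternatives for 30 named members, 376 kept direction and side of the threshold, 7 are the calls above and the rest changed sign. The cause was not tested. Several alternatives could not change the direction of a member. The mean of B-1b 1 and 3 repeats B-1b 1, and the filters, the replicate block and no sharing of the spread leave the difference itself unchanged. The 376 therefore include alternatives that did not test direction. With all 6 columns the sign turned for Mrps35 (-0.029), Mrpl20 (-0.41), Mrps24 (0.23), Mrpl58 (-0.072), Mrps30 (-0.019) and Mrps18a (-0.024), with equal upper quartiles for Mrps35 (-0.021), Mrpl20 (-0.0016) and Mrps18a (-0.010), and with the highest row alone for Mrps24 (1.41) and Mrps18a (-0.10). Leaving out 1 library turned the sign of 15 members, with ranges of -0.40 to 1.72 (Mrpl43), -1.04 to 1.12 (Mrpl20), -1.45 to 1.11 (Mrps24), -1.88 to 0.72 (Mrpl18), -1.36 to 0.29 (Mrps12), -0.42 to 0.58 (Mrpl58), -0.022 to 0.55 (Mrpl12), -0.086 to 0.69 (Mrpl42), -0.33 to 0.17 (Mrpl33), -0.31 to 0.057 (Mrpl52), -0.30 to 0.066 (Mrps18c), -0.13 to 0.17 (Mrps35), -0.42 to 0.20 (Mrps36), -0.16 to 0.26 (Mrps30), -0.14 to 0.21 (Mrps18a). In the 12 members with the smallest p per direction the groups do not overlap, so leaving out 1 library could not turn the sign. Their ranges were 2.98 to 4.46 (Mrpl54), 0.39 to 0.50 (Mrpl40), 0.61 to 1.11 (Mrpl15), 0.30 to 0.57 (Mrpl24), 0.30 to 1.09 (Mrps17), 0.21 to 0.54 (Mrpl14), -1.5 to -1.22 (Mrpl4), -1.16 to -0.61 (Mrpl13), -3.31 to -1.49 (Mrpl41), -0.61 to -0.28 (Mrpl30), -0.49 to -0.21 (Mrpl49) and -0.38 to -0.20 (Mrps18b). With the highest row alone, that of Mrpl40 became 0.19, Mrps17 0.015, Mrpl13 -0.53 and Mrpl24 0.75. Leaving out 1 library moved the value by over 1.5 times for Mrps17 (0.30 without B-1b 2, 1.09 without B-1b 1), Mrpl14 (0.21 without B-1b 2), Mrpl41 (-1.49 without B-1b 1), Mrpl30 (-0.28 without B-1b 1, -0.30 without B-1a 1) and Mrpl49 (-0.21 without B-1b 1). Over all genes limma called 15, against 0 with any library left out, 0 without sharing of the spread, 7 with no filter, 8 with the highest row, 19 with B-1b 1 and 3 as their mean and 1241 with all 6 columns.

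The labels do not pair the libraries, and deviations of same-numbered libraries had a correlation of 0.00124 over 7557 genes. With the replicate number as a block, limma called 0 members and 0 genes, with 2 members higher and 3 lower at an unadjusted p below 0.05.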
